A study of Homo sapiens with 6 samples.

Results

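The genes described here are the 49 protein-coding genes of the deposited count table that encode subunits of the proteasome, its activators and inhibitor, and the factors that assemble it. They were taken by name from 25336 genes, of which 16205 are protein-coding. The rule took every protein-coding symbol made of PSM, a letter from A to G and a number, and added ADRM1, POMP and PAAF1. It found 7 PSMA, 10 PSMB, 6 PSMC, 14 PSMD, 4 PSME, 1 PSMF and 4 PSMG genes besides those 3, and uses no measured value.

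RNA-seq was done on THP-1 cells, an established human line derived from an acute monocytic leukaemia, in 3 libraries labelled control and 3 labelled as treated with pristimerin. This plant compound of the bittersweet family, a triterpenoid with a quinone methide group, has been described as a proteasome inhibitor. The labels name no dose, time, vehicle, allele or second agent, and no library carries a label for erastin, the ferroptosis inducer in the series title. Whether the replicate biosamples came from separate cultures is not said, and the p-values therefore rest on library-to-library spread that may be technical.

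The proteasome is the protease that degrades proteins tagged with ubiquitin. Its barrel-shaped core is built from outer rings of PSMA subunits and inner rings of PSMB subunits, some of which carry the active sites. A regulatory particle of PSMC and PSMD subunits caps the core, where it recognises the ubiquitin chain, removes it, unfolds the substrate and threads it inside. Cells that present peptides on MHC class I molecules can build an immunoproteasome, in which PSMB8, PSMB9 and PSMB10 replace the constitutive catalytic subunits, and can cap the core with the activator of PSME1 and PSME2 instead; interferon-gamma is the classical inducer of both. When proteasome activity falls, the transcription factor NRF1, product of NFE2L1, is known to raise the subunit genes together.

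Library totals ranged from 19057219 counts in control replicate 3 to 30568593 counts in pristimerin replicate 1. Levels of a gene are given in CPM, counts scaled to a common library total with TMM normalisation, with scaling factors of 0.970 to 1.03, and levels of different genes are compared in FPKM, which also divides by gene length. The 12 monocytic markers were all detected. Sums over marker lists were scaled by library totals, without TMM. The monocytic sum was 2084 to 2254 CPM in control and 2217 to 2246 CPM in pristimerin. LYZ at 1429 CPM and SPI1 at 278 CPM in control were high, whereas the defining markers CD14 and CD68 averaged 0.451 and 0.494 CPM in control, so the monocytic label rests on the others. In pristimerin, ITGAM, FCGR1A and TYROBP were lower and FCER1G was higher by the test used below. LYZ was not called, although its TMM-scaled level in every pristimerin library, 1588 CPM on average, lay above every control library. Summed T cell, erythroid, epithelial and fibroblast markers stayed at or below 0.226 CPM in every library. The B cell marker PAX5 averaged 1.38 CPM in control and 2.14 CPM in pristimerin and was called higher, and the liver list summed to 1.10 to 1.17 CPM in control and 0.493 to 0.687 CPM in pristimerin. The part of these marker differences in the results was not tested.

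The proteasome genes did not move together. Of the 49 members, all of which passed the low-count filter, 12 fell and 7 rose in pristimerin, and 30 were not called (edgeR's quasi-likelihood test, Benjamini-Hochberg adjusted p under 0.05 over 15305 genes). Over all genes tested, 15.1% were called lower and 14.5% higher, so 12 of 49 lower lies above that background and 7 of 49 higher lies near it; no test of that difference was made. The genes that fell were constitutive catalytic subunits (PSMB6, PSMB7), the core subunit PSMB4, subunits of the regulatory particle (PSMC1, PSMC4, PSMC5, PSMD2, PSMD3, PSMD4, ADRM1) and base chaperones (PSMD10, PAAF1). Those that rose were the immune catalytic subunits PSMB8 and PSMB9, the activators PSME1, PSME2 and PSME3, and the core assembly chaperones PSMG1 and PSMG2. The changes were small, from -0.40 for PSMD10 to 0.60 for PSMB9 on the log2 scale. In bulk RNA, fewer cells of a type and less RNA per cell cannot be told apart.

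The median log2 fold change of the members was -0.090, against -0.013 over all genes tested. In 20 members every pristimerin library lay below every control library, and in 7 every pristimerin library lay above, against 22.3% and 21.0% of all genes tested. Among the 32 constitutive subunits of the core and the regulatory particle, 28 had a log2 fold change below 0, 10 fell and 0 rose. The number of lower members depended on the libraries and on the scaling. It was 6 without control replicate 3, the shallowest library, and 7 without pristimerin replicate 2, whereas scaling by library totals gave 23 lower and 5 higher members and cyclic loess gave 24 and 6. Over all genes, 48.9% of calls were higher under TMM, 33.3% under upper-quartile scaling, 30.1% under library totals and 49.1% under cyclic loess. Under library totals the median log2 fold change was -0.084 over all genes and -0.16 over the members. Under cyclic loess these medians were 0.010 and -0.17. Over all genes, 2313 were called lower under TMM. More than that were called lower under library totals, and fewer under cyclic loess. Thus the background moved down with the members under library totals, but not under cyclic loess. Under all 18 alternatives 11 calls were kept, namely those of PSMB6, PSMB7, PSMB4, PSMC1, ADRM1 and PSMD10, which were lower, and of PSMB9, PSME1, PSME2, PSME3 and PSMG2, which were higher. Conversely, 15 of the 30 uncalled members were called under at least 1 alternative, PSMB1, PSMD11 and PSMD14 as lower under 8 and PSMC3 and PSMD6 as lower under 7.

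**Figure D1:**
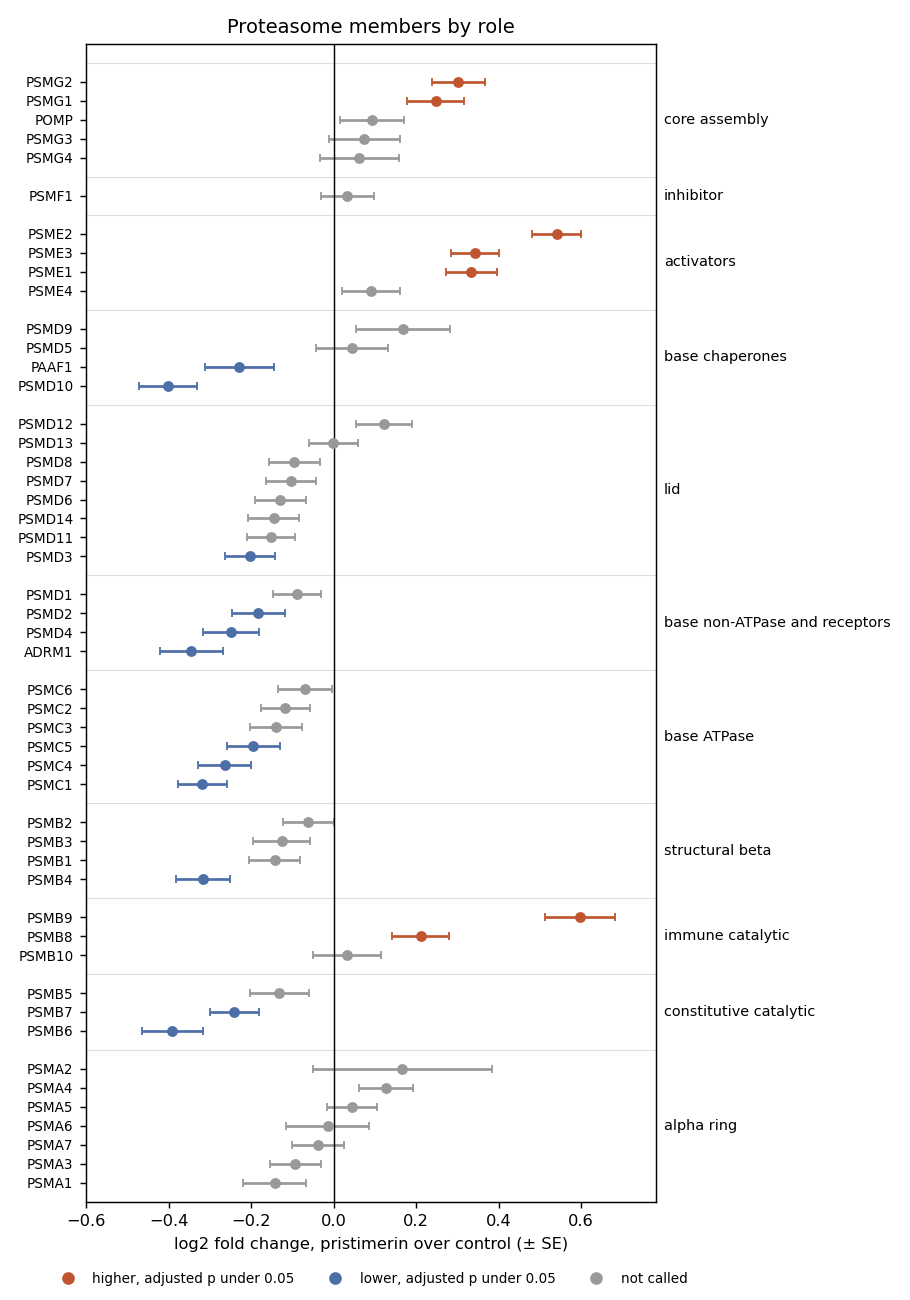
Log2 fold change of each of the 49 members (horizontal axis, pristimerin over control, points with standard errors), grouped by role and coloured by the edgeR call. Values run from -0.40 for PSMD10 to 0.60 for PSMB9, and the called genes of each role lie on the same side of 0; the uncalled PSMA5, PSMA6, PSMA7, PSMB10, PSMD5, PSMD13, PSMF1 and PSMG4 change side under at least 1 other setting.

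The upstream sequences of the 2 highest and the 2 lowest called members that the RefSeq promoter table holds are shown because these genes mark the ends of the response. Each is the 250 bases before the RefSeq start site on GRCh38.p14, written 5′ to 3′ on the strand of the gene. Capitals mark matches on either strand to TGANNNNGC, an antioxidant or NRF1 type of element, to CCAAT, to GAANNTTC, a heat shock type, to TATAAA, to GAAANNGAA, an interferon-stimulated type, and to TTCNNNGAA, a gamma-activated type. GC boxes (GGGCGG) were counted but left in lower case, and motifs were counted separately where their letters overlapped. The windows lie at chr6:32853942-32854191 on the plus strand for PSMB9, chr14:24146611-24146860 on the minus strand for PSME2, chrX:108091543-108091792 on the minus strand for PSMD10 and chr20:62302646-62302895 on the plus strand for ADRM1.
PSMB9: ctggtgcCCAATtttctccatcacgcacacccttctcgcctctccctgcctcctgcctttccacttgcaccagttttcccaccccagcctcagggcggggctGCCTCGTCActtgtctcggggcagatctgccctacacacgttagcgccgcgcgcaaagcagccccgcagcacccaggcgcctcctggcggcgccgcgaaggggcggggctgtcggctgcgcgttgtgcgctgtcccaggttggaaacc
PSME2: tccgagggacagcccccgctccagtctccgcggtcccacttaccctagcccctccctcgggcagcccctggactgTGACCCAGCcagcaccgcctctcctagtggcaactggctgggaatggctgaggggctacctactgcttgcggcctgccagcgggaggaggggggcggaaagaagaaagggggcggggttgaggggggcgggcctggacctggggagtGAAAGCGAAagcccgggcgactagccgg
PSMD10: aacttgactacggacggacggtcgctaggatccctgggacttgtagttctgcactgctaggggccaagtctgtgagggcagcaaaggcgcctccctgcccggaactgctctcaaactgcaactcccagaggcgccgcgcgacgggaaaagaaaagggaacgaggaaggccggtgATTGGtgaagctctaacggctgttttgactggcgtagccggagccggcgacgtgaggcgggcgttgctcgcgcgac
ADRM1: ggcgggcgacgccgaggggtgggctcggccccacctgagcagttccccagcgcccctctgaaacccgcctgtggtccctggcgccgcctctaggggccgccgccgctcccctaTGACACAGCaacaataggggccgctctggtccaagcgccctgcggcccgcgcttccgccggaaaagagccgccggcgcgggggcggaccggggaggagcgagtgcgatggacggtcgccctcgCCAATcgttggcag
The PSMB9 window holds a CCAAT box and an antioxidant type match, and its RefSeq start lies 10056 bases inside the deposited gene. In PSME2 an antioxidant type match lies far upstream and an interferon-stimulated type match, GAAAGCGAA, lies close to the start. PSMD10 has a CCAAT box, and ADRM1 has an antioxidant type match and a CCAAT box.

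Promoters of 43 of the 49 members were matched by symbol; PSMA7, PSMB1, PSMB6, PSMB7, PSMD4 and PSMG3 had no row. TGANNNNGC was found in 51.2% of the members' windows, in 35.6% of 12752 protein-coding windows and in 35.2% of all 35116 windows of that length. It was present in 6 of the 7 members that rose and in 4 of the 9 members with a window that fell, namely PSMB4, PSMC4, PSMD3 and ADRM1. CCAAT was found in 44.2% of member windows against 34.6% of protein-coding and 32.0% of all windows, and GGGCGG in 65.1% against 62.6% and 42.6%. No member window held GAANNTTC, which 4.39% of protein-coding and 5.78% of all windows held, and 9.30% held TATAAA, against 7.01% and 10.7%. GAAANNGAA and TTCNNNGAA, chosen after the values were seen, were found in 14.0% and 11.6% of member windows, against 5.85% and 5.82% of protein-coding and 6.88% and 6.57% of all windows. Among its 6 members, GAAANNGAA was present as GAAAGCGAA in PSME2 and in the uncalled PSMB10 and PSMG4. It read GAAAAAGAA in the lower member PSMB4, and GAAACGGAA and GAAAATGAA in the uncalled POMP and PSMA4. A match is a description of these letters and not a site.

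Of the 3 constitutive catalytic subunits, 2 fell in pristimerin (background 15.1% of all genes tested) and PSMB5 was not called. PSMB6, the caspase-like subunit (chr17:4796144-4798502, hg38, plus strand), was at 70.9, 68.4 and 72.9 CPM in the control libraries and 53.2, 49.3 and 59.2 CPM in the pristimerin libraries. Every pristimerin library lay below every control library, with replicate 2 lowest (log2 fold change -0.39, SE 0.074, adjusted p = 0.000807). PSMB7, the trypsin-like subunit (chr9:124353465-124415444, minus strand), was at 160.2, 160.0 and 156 CPM in the control libraries and 136, 129 and 138 CPM in the pristimerin libraries. The groups were again apart, and the control libraries were close to each other (log2 fold change -0.24, SE 0.059, adjusted p = 0.00530). PSMB5, the chymotrypsin-like subunit and the main target of clinical proteasome inhibitors, was at 107, 107 and 105 CPM in the control libraries and 99.0, 86.0 and 106 CPM in the pristimerin libraries. Its pristimerin replicate 3 reached the control range, and it was not called (log2 fold change -0.13, SE 0.072, adjusted p = 0.185). Summed over these 3 genes, the level was 336 ± 2.23 CPM in control and 285 ± 19.6 CPM in pristimerin (SD, n = 3 each), a ratio of 0.850.

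Of the 3 immune catalytic subunits, 2 rose (background 14.5% of all genes tested) and PSMB10 was not called. PSMB9, which replaces PSMB6 (chr6:32844136-32859851, plus strand), was at 29.2, 31.8 and 35.2 CPM in the control libraries and 50.0, 44.5 and 50.8 CPM in the pristimerin libraries. All pristimerin libraries lay well above the control range, and its log2 fold change was the highest of the 49 (log2 fold change 0.60, SE 0.084, adjusted p = 5.46e-05). PSMB8, which replaces PSMB5 (chr6:32840717-32844679, minus strand), was at 121, 110.1 and 118 CPM in the control libraries and 141, 123 and 139.8 CPM in the pristimerin libraries. The groups did not overlap, but pristimerin replicate 2 came close to control replicate 1, and the call (log2 fold change 0.21, SE 0.068, adjusted p = 0.0274) was lost under 11 of the 18 alternatives, among them library totals and leaving out control replicate 2. PSMB10, which replaces PSMB7, was at 95.8, 73.4 and 89.0 CPM in the control libraries and 90.5, 85.1 and 88.4 CPM in the pristimerin libraries. Control replicate 2 was the lowest and control replicate 1 the highest of the 6 libraries, and no change was called (log2 fold change 0.033, SE 0.083, adjusted p = 0.804); without control replicate 2 its log2 fold change was -0.071.

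PSMB8 and PSMB9 lie on opposite strands of the MHC region and overlap by 544 bases, and PSMB9 as deposited also covers TAP1 on the opposite strand over 8608 bases. Whether the authors counted by strand is not given in the sources used here; without strand, reads of PSMB9, PSMB8 and TAP1 cannot be told apart in the overlaps. TAP1, the peptide transporter, was itself higher (log2 fold change 0.51, SE 0.071, adjusted p = 4.35e-05).

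**Figure D2:**
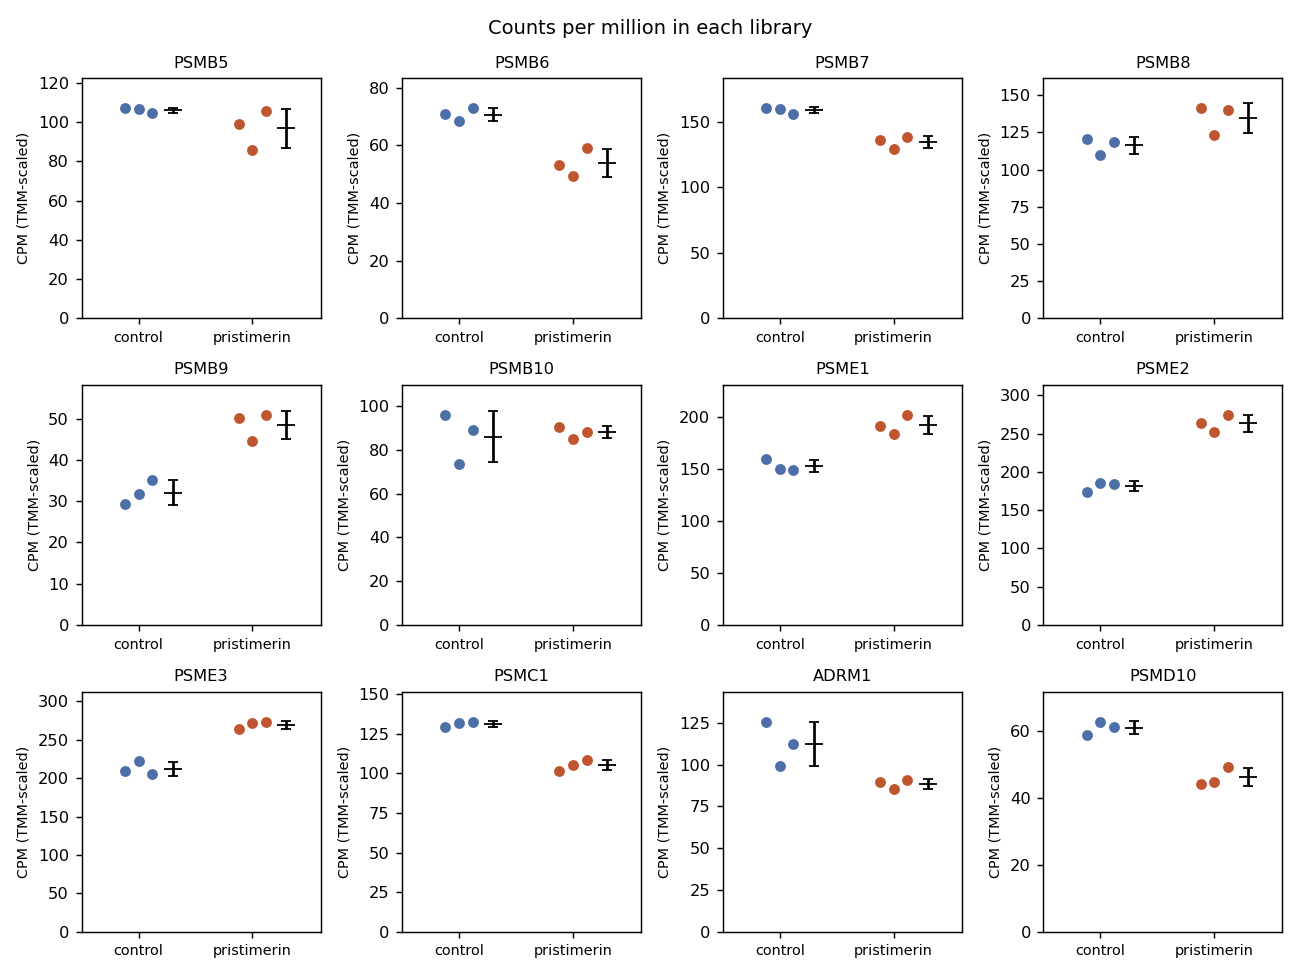
TMM-scaled CPM (vertical axes, each from 0) of 12 members in each of the 3 control and 3 pristimerin libraries, with the mean and SD beside the points. The groups do not overlap in any panel except PSMB5 and PSMB10, and PSMB9 and PSME2 have the highest log2 fold changes, 0.60 and 0.54.

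Within a library, the ratio of an immune subunit to the constitutive subunit that it replaces does not depend on the scaling between libraries. In FPKM, the ratio of PSMB9 to PSMB6 was 0.179, 0.202 and 0.209 in the control libraries and 0.408, 0.391 and 0.372 in the pristimerin libraries, a 1.99-fold change of the mean. The ratio of PSMB8 to PSMB5 was 0.502, 0.460 and 0.503 in the control libraries and 0.635, 0.637 and 0.589 in the pristimerin libraries, a 1.27-fold change. The ratio of PSMB10 to PSMB7 was 0.658, 0.504 and 0.626 in the control libraries and 0.730, 0.725 and 0.704 in the pristimerin libraries, a 1.21-fold change. None of the 3 ratios overlapped between the groups, and in each the ratio was higher in every pristimerin library. Even so, each constitutive gene kept the higher FPKM of its pair in every library. Leaving out any library left the changes at 1.90-fold to 2.05-fold, 1.23-fold to 1.30-fold and 1.12-fold to 1.27-fold. Each ratio also holds the level of its constitutive gene. By edgeR the fold was 1.51 for PSMB9 and 0.762 for PSMB6, and 1.16 for PSMB8 and 0.913 for the uncalled PSMB5. For the uncalled PSMB10 it was 1.02, against 0.846 for PSMB7. The levels depend on the lengths the authors divided by, which were 3338 bases for PSMB9 and 3480 for PSMB8, against 1447 for PSMB6 and 1549 for PSMB5, whereas the change between groups does not.

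**Figure D3:**
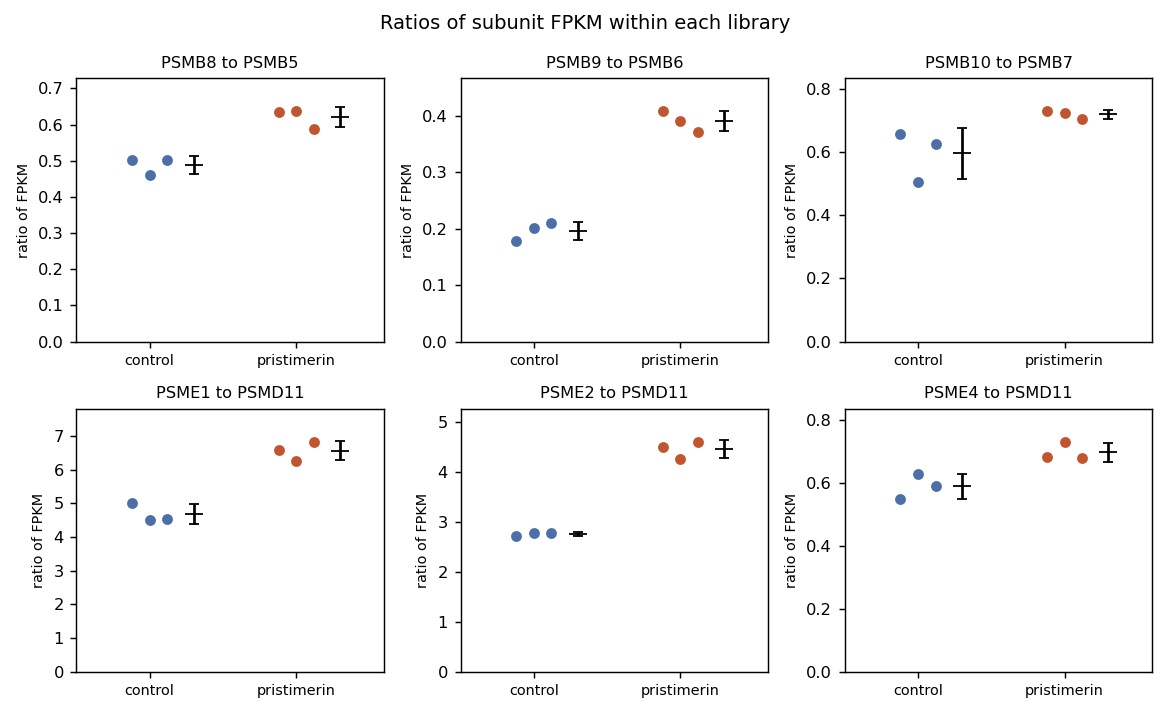
Ratio of FPKM of the named genes within each library (vertical axes, each from 0) for 3 control and 3 pristimerin libraries, with mean and SD. All 6 ratios are higher in every pristimerin library, from 1.19-fold for PSME4 to PSMD11 to 1.99-fold for PSMB9 to PSMB6.

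The remaining core subunits carry no active site. Of the 4 structural beta subunits, only PSMB4 (chr1:151399560-151401937, plus strand) was called, as lower (background 15.1%). It was at 314, 309 and 337 CPM in the control libraries and 265, 235 and 271 CPM in the pristimerin libraries. The drop was present in every pristimerin library and largest in replicate 2 (log2 fold change -0.32, SE 0.065, adjusted p = 0.00158). PSMB3, with the highest FPKM among the beta subunits at a mean of 138 FPKM, was at 175, 162 and 167 CPM in the control libraries and 157, 139 and 166 CPM in the pristimerin libraries. Pristimerin replicate 3 lay within the control range, and it was not called (log2 fold change -0.13, SE 0.069, adjusted p = 0.178). PSMB1 and PSMB2 were not called either, with log2 fold changes of -0.14 and -0.062, although PSMB1 was below the control range in every pristimerin library.

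The alpha ring forms the gate of the core, and 0 of its 7 genes were called by edgeR (background 15.1% and 14.5%), as by DESeq2 and limma-voom, with 0 at an unadjusted p under 0.05. Under other settings PSMA4 was called higher (replicate block, and without control replicate 2), PSMA1 lower (upper-quartile scaling and library totals) and PSMA3 lower (cyclic loess). Their summed level was 947 ± 24.9 CPM in control and 956 ± 12.4 CPM in pristimerin (SD, n = 3 each), a ratio of 1.01 that becomes 0.961 under library totals. PSMA7, the alpha subunit with the highest level at a mean of 141 FPKM, was at 258, 241 and 252 CPM in the control libraries and 256, 225 and 250.5 CPM in the pristimerin libraries. The groups overlapped (log2 fold change -0.039, SE 0.063, adjusted p = 0.683). PSMA1, with the lowest log2 fold change of the ring, was at 41.3, 43.4 and 43.5 CPM in the control libraries and 36.9, 42.0 and 37.2 CPM in the pristimerin libraries, which also overlapped (log2 fold change -0.14, SE 0.076, adjusted p = 0.168). PSMA3, PSMA4 and PSMA5 had log2 fold changes of -0.094, 0.13 and 0.044.

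PSMA2 and PSMA6 stood apart in level. PSMA2 was at 1.61, 1.81 and 1.50 CPM in the control libraries and 1.93, 2.20 and 1.40 CPM in the pristimerin libraries, a mean of 0.208 FPKM, and its log2 fold change of 0.17 carried the widest standard error of the members, 0.22. PSMA6 averaged 1.63 FPKM, with a log2 fold change of -0.015, whereas the other 5 alpha subunits averaged 13.4 to 141 FPKM. The assembled core is known to hold each alpha subunit in equal number. In GENCODE 29 both genes overlap another protein-coding gene on the same strand, and those overlapping genes averaged 0.0183 CPM for PSMA2 and 0.258 CPM for PSMA6 in the count table. How reads shared by such genes were counted is not given in the sources used here, so the levels of PSMA2 and PSMA6 are uncertain. PSMD9, PSMA1, PSMB10 and PSMC2 also overlap a protein-coding gene on the same strand there.

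**Figure D4:**
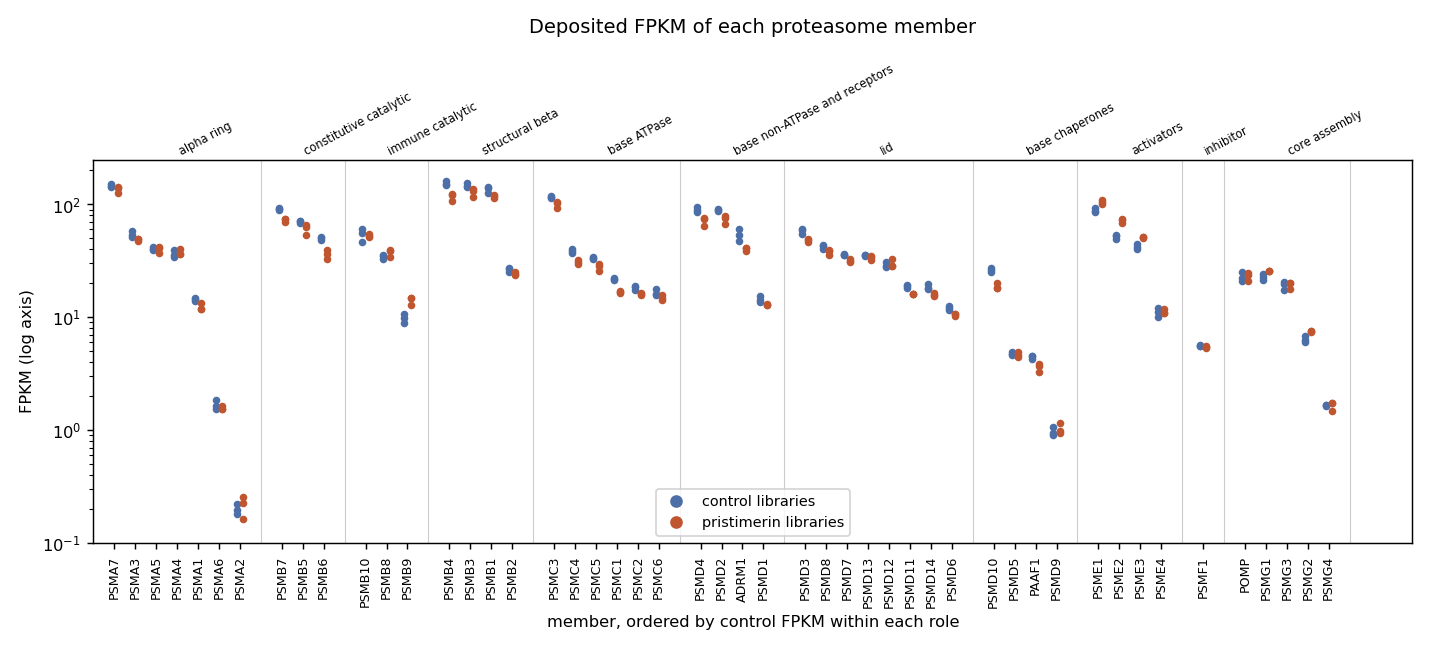
Deposited FPKM (vertical log axis) of each member in each library, ordered by control FPKM within each role, with control and pristimerin libraries as separate points. Levels span 0.208 FPKM for PSMA2 to 141 FPKM for PSMA7 on average, and the difference between genes is far wider than that between groups.

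The base of the regulatory particle was lower at several points. Of its 6 ATPases, which unfold the substrate, 3 fell and 0 rose (background 15.1% and 14.5%), and all 6 had log2 fold changes below 0. PSMC1 (chr14:90256527-90275429, plus strand) was at 129, 132 and 132 CPM in the control libraries and 102, 105 and 108 CPM in the pristimerin libraries. Every pristimerin library was lower and the libraries within each group were close (log2 fold change -0.32, SE 0.059, adjusted p = 0.000704). PSMC4 was at 96.8, 92.6 and 100.1 CPM in the control libraries and 79.8, 77.3 and 84.0 CPM in the pristimerin libraries. The groups did not overlap (log2 fold change -0.26, SE 0.064, adjusted p = 0.00518), and the call was lost only without control replicate 3. PSMC5 was at 142, 139.9 and 138 CPM in the control libraries and 124, 113 and 129.8 CPM in the pristimerin libraries. It too was lower throughout (log2 fold change -0.20, SE 0.064, adjusted p = 0.0290), but it was called in 14 of the 18 alternatives, the others each leaving out a library. PSMC3, the ATPase with the highest level at a mean of 108 FPKM, was below the control range in every pristimerin library but not called (log2 fold change -0.14, SE 0.063, adjusted p = 0.101). PSMC2 likewise had a log2 fold change of -0.12 without a call, and PSMC6, the least changed, was at -0.070 with overlapping groups.

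The ATPase ring sits on scaffold subunits and ubiquitin receptors. ADRM1, a ubiquitin receptor that also recruits the deubiquitinase UCHL5 (chr20:62302093-62308862, plus strand), was at 126, 99.2 and 112 CPM in the control libraries and 89.5, 85.3 and 90.7 CPM in the pristimerin libraries. The control libraries were spread widely, yet all lay above the pristimerin libraries (log2 fold change -0.34, SE 0.077, adjusted p = 0.00288). PSMD4, the other dedicated ubiquitin receptor, was at 263, 249 and 280.1 CPM in the control libraries and 228, 202 and 237 CPM in the pristimerin libraries. The groups were apart, with pristimerin replicate 2 lowest (log2 fold change -0.25, SE 0.069, adjusted p = 0.0113), and the call was lost without that library or without control replicate 3. PSMD2, the scaffold with the highest level of the non-ATPase subunits at a mean of 81.6 FPKM, was at 429, 436 and 423 CPM in the control libraries and 386, 344 and 404 CPM in the pristimerin libraries. It was lower in each pristimerin library (log2 fold change -0.18, SE 0.064, adjusted p = 0.0386), but the call was lost under 5 alternatives, all of which left out a library. PSMD1, the other scaffold, was not called, with a log2 fold change of -0.090 and groups that did not overlap.

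The lid removes ubiquitin chains before degradation, and 1 of its 8 genes was called lower, near the background of 15.1%. PSMD3, a structural lid subunit, was at 294, 264 and 287 CPM in the control libraries and 250.4, 237 and 247 CPM in the pristimerin libraries. All pristimerin libraries were lower (log2 fold change -0.20, SE 0.060, adjusted p = 0.0177), and the call was lost under 4 of the alternatives, each without a library. PSMD14, the deubiquitinating subunit, was at 130.2, 139 and 128 CPM in the control libraries and 116, 119 and 125 CPM in the pristimerin libraries. It too lay below the control range throughout, and it missed the threshold (log2 fold change -0.15, SE 0.062, adjusted p = 0.0869). Its partner PSMD7 and the structural subunits PSMD6, PSMD8 and PSMD11 had log2 fold changes of -0.15 to -0.096, none called, whereas PSMD13 was at -0.0014 and PSMD12 at 0.12. Over the lid the summed level was 1226 ± 4.58 CPM in control and 1149.5 ± 12.3 CPM in pristimerin (SD, n = 3 each), a ratio of 0.938.

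The base is put together by 4 dedicated chaperones, which were described apart from the finished particle. PSMD10, also known as the oncoprotein gankyrin (chrX:108084207-108091549, minus strand), was at 59.0, 62.8 and 61.3 CPM in the control libraries and 44.4, 45.0 and 49.4 CPM in the pristimerin libraries. It showed the lowest log2 fold change of all members, and its groups were far apart (log2 fold change -0.40, SE 0.070, adjusted p = 0.000396). PAAF1, another chaperone of the base, was at 35.1, 34.6 and 33.4 CPM in the control libraries and 29.6, 26.8 and 31.7 CPM in the pristimerin libraries. Its pristimerin libraries all lay lower, but the call (log2 fold change -0.23, SE 0.083, adjusted p = 0.0473) was lost under 9 of the 18 alternatives, including each left-out library. PSMD9 was at 7.70, 8.00 and 9.29 CPM in the control libraries and 10.4, 8.91 and 8.52 CPM in the pristimerin libraries and had the highest log2 fold change of the regulatory symbols, uncalled and with overlapping groups (log2 fold change 0.17, SE 0.11, adjusted p = 0.290). PSMD5, the remaining chaperone, was at 0.044 on the log2 scale.

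The activators that cap the core in place of the regulatory particle were higher, with 3 of 4 genes called (background 14.5%). PSME2, the beta subunit of the heteromeric activator (chr14:24143362-24147570, minus strand), was at 173, 186 and 184 CPM in the control libraries and 264, 252 and 274 CPM in the pristimerin libraries. The pristimerin libraries were all far above the control range, with little spread in either group (log2 fold change 0.54, SE 0.059, adjusted p = 3.69e-06). PSME1, its alpha subunit, whose gene lies 4394 bases away on the opposite strand (chr14:24136163-24138967), was at 159, 149.7 and 149 CPM in the control libraries and 191, 184 and 202 CPM in the pristimerin libraries. It too rose in every library (log2 fold change 0.33, SE 0.061, adjusted p = 0.000600). PSME3, the subunit of the nuclear activator (chr17:42824385-42843760, plus strand), was at 209, 222 and 205 CPM in the control libraries and 263, 272 and 273 CPM in the pristimerin libraries. The groups were again clearly apart (log2 fold change 0.34, SE 0.058, adjusted p = 0.000307). PSME4, a separate large nuclear activator, was at 102, 122 and 113 CPM in the control libraries and 116, 126 and 117 CPM in the pristimerin libraries with overlapping groups and no call (log2 fold change 0.091, SE 0.070, adjusted p = 0.354).

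The summed level of PSME1 and PSME2 was 334 ± 1.74 CPM in control and 456 ± 19.6 CPM in pristimerin (SD, n = 3 each), a ratio of 1.37. Against PSMD11, a lid subunit taken as a measure of the regulatory particle, the FPKM ratio of PSME2 was 2.71, 2.79 and 2.77 in the control libraries and 4.50, 4.26 and 4.61 in the pristimerin libraries, a 1.62-fold change. That of PSME1 was 5.02, 4.52 and 4.53 in the control libraries and 6.58, 6.27 and 6.84 in the pristimerin libraries, a 1.40-fold change. For PSME4 it was 0.549, 0.629 and 0.590 in the control libraries and 0.683, 0.732 and 0.679 in the pristimerin libraries, a 1.19-fold change. The pristimerin libraries were higher in all 3 ratios. PSMD11 itself was at 129.9 ± 2.87 CPM in control and 117 ± 0.861 CPM in pristimerin (SD, n = 3 each), a fold of 0.900 without overlap, so the ratios also hold its lower level; the fold of PSME4 alone was 1.07. PSMF1, an inhibitor of the core, was at 57.9, 56.4 and 56.6 CPM in the control libraries and 59.2, 57.0 and 58.7 CPM in the pristimerin libraries, with overlapping groups and a log2 fold change of 0.033 that fell below 0 under upper-quartile, library-total and cyclic loess scaling.

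Of the 5 factors that assemble the core, 2 rose and 0 fell (background 14.5% and 15.1%). PSMG2, partner of PSMG1 in the chaperone that builds the alpha ring (chr18:12658043-12728945, plus strand), was at 73.5, 82.7 and 77.6 CPM in the control libraries and 94.5, 97.4 and 96.5 CPM in the pristimerin libraries. Each pristimerin library lay above the control range (log2 fold change 0.30, SE 0.065, adjusted p = 0.00216). PSMG1, with the highest level of the assembly factors at a mean of 24.3 FPKM, was at 47.6, 50.7 and 45.1 CPM in the control libraries and 56.6, 57.0 and 57.0 CPM in the pristimerin libraries. Its pristimerin libraries were nearly identical and all higher (log2 fold change 0.25, SE 0.069, adjusted p = 0.0123), although the call was lost without control replicate 3, under library totals and on both FPKM scales. POMP, which guides the beta ring and is degraded as the core matures, was at 107, 120.2 and 101 CPM in the control libraries and 105, 126 and 119.5 CPM in the pristimerin libraries, with overlapping groups and no call (log2 fold change 0.092, SE 0.078, adjusted p = 0.397). PSMG3 and PSMG4, which form the second alpha ring chaperone, were at 0.074 and 0.062 on the log2 scale, uncalled.

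**Figure D5:**
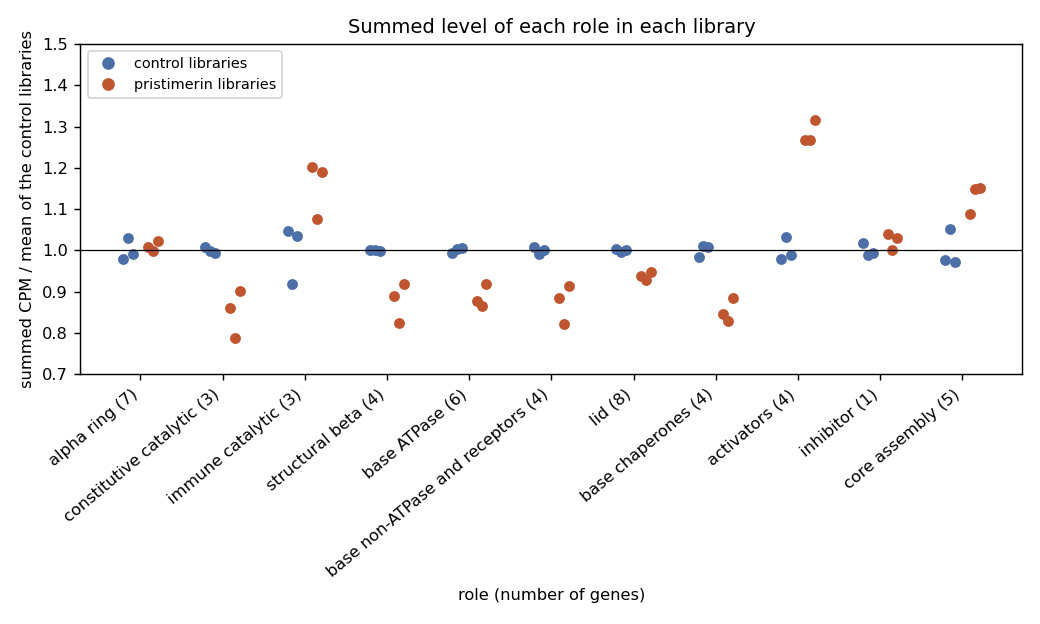
Summed TMM-scaled CPM of the genes of each role in each library, divided by the mean of the control libraries (vertical axis from 0.7), with the number of genes in brackets. Pristimerin libraries lie below the control libraries in 6 of 11 roles and above them in the immune catalytic, activator and core assembly roles. The alpha ring and the inhibitor overlap, and their mean ratios of 1.01 and 1.02 turn to 0.961 and 0.974 under library totals. Under library totals the immune catalytic and core assembly roles overlap between the groups as well, with mean ratios of 1.10 and 1.07.

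Summed over the 32 constitutive subunits, the level was 5339 ± 14.7 CPM in control and 4879.8 ± 159 CPM in pristimerin (SD, n = 3 each), a ratio of 0.914. Over all 49 members it was 6702 ± 30.0 CPM in control and 6486 ± 193 CPM in pristimerin (SD, n = 3 each), a ratio of 0.968. In both sums every pristimerin library lay below every control library, in the second only just for replicate 3. By role, the lowest ratios were those of the constitutive catalytic genes at 0.850 and the base chaperones at 0.853. The structural beta subunits were at 0.878, the ATPases at 0.887, and the scaffolds and receptors at 0.874. The core assembly factors reached 1.13, the immune catalytic subunits 1.16 and the activators 1.28.

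Several members share sequence or position with other genes. In 10 members, 7 of them called, an overlapping gene had at least 20% of their CPM. These were PSMC5 with FTSJ3, PSMA3 with PSMA3-AS1, PSMC1 with NRDE2, PSMG2 with SPIRE1, PSME3 with BECN1 and PSMG3 with PSMG3-AS1. The others were PSMC2 with PMPCB and DNAJC2, PAAF1 with COA4, PSMB8 with PSMB9, and PSMB9 with PSMB8 and TAP1. FTSJ3, NRDE2, SPIRE1, BECN1 and COA4 were not called, with log2 fold changes of -0.031, 0.16, 0.12, 0.056 and -0.062. For 12 members GENCODE 29 lists named pseudogenes, 13 of them for PSMC1, 4 for PSMA6 and 3 each for PSMA2 and PSMD10. The count table holds 0 rows for these pseudogenes, and the levels of such members are uncertain to the extent that reads were shared.

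Genes around the proteasome were read from 4 lists. In the list of NRF1 control, 2 of 13 tested genes fell and 2 rose, near the background of 15.1% and 14.5% over all genes tested. NFE2L1 itself was at 178, 166 and 169 CPM in the control libraries and 168, 162 and 171 CPM in the pristimerin libraries, with overlapping groups (log2 fold change -0.033, SE 0.059, adjusted p = 0.714). NGLY1, which removes sugars from NRF1 on its way to activation, was not called either (log2 fold change 0.026, SE 0.069, adjusted p = 0.814). DDI2, the protease that cleaves NRF1, was at 35.2, 38.8 and 38.9 CPM in the control libraries and 55.0, 57.9 and 53.4 CPM in the pristimerin libraries. It rose in every pristimerin library (log2 fold change 0.56, SE 0.072, adjusted p = 2.13e-05). NFE2L3, a relative of NFE2L1, rose as well (log2 fold change 0.38, SE 0.11, adjusted p = 0.0148), whereas MAFG, a small partner protein of NRF1 and NRF2, fell (log2 fold change -0.37, SE 0.067, adjusted p = 0.000524), as did VCP, the ATPase that extracts NRF1 from the membrane (log2 fold change -0.17, SE 0.059, adjusted p = 0.0372). The median log2 fold change of the list was 0.020, against -0.013 over all genes. The call of VCP was lost without the low-count filter, without control replicate 1 or 3 and without each pristimerin library, and that of NFE2L3 on both FPKM scales and without pristimerin replicate 3.

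Among 13 genes of bound enzymes and extra subunits, 4 rose and 1 fell (background 14.5% and 15.1%). UCHL5, the deubiquitinase held by ADRM1, was at 87.0, 99.9 and 88.7 CPM in the control libraries and 106, 119.8 and 108 CPM in the pristimerin libraries. It was higher in each pristimerin library (log2 fold change 0.28, SE 0.071, adjusted p = 0.00748), opposite to its docking subunit. The ubiquitin ligase UBE3A and the proteasome-bound ligase UBE3C had log2 fold changes of 0.23 and 0.21, and ZFAND5, a proteasome-binding zinc finger protein, of 0.23, all called, but the calls were lost under 8, 5 and 7 of the 18 alternatives, upper-quartile scaling, library totals and cyclic loess among them. That of UCHL5 was lost under 3, cyclic loess and both FPKM scales. ZFAND2A, a stress-inducible relative, fell (log2 fold change -0.32, SE 0.088, adjusted p = 0.0118), though not without control replicate 3. SEM1, the smallest lid subunit, which the naming rule leaves out, and USP14, the other bound deubiquitinase, were not called, with log2 fold changes of -0.17 and 0.14.

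Of 14 genes for ubiquitin and its shuttles, 2 fell and 3 rose (background 15.1% and 14.5%). UBB, a polyubiquitin gene, was at 451, 445 and 476 CPM in the control libraries and 418, 348 and 416 CPM in the pristimerin libraries. It was lower in every pristimerin library, with replicate 2 lowest (log2 fold change -0.21, SE 0.070, adjusted p = 0.0276), and the call was lost without that library or without control replicate 3. The shuttle RAD23B and NUB1, a regulator of ubiquitin-like proteins, rose with log2 fold changes of 0.18 and 0.28, beside DDI2, which is in this list too. The call of RAD23B was lost under 10 of the 18 alternatives, among them upper-quartile scaling, library totals and cyclic loess.

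The list for peptide export on MHC class I moved most, with 9 of 11 genes higher and 1 lower, against a background of 14.5% and 15.1%. HLA-B, a heavy chain of the class I molecule, was at 186, 168 and 189 CPM in the control libraries and 405, 364 and 407 CPM in the pristimerin libraries. All pristimerin libraries were far above the control range (log2 fold change 1.12, SE 0.066, adjusted p = 1.48e-09). IRF1, a transcription factor of the interferon response, was at 20.6, 20.0 and 18.4 CPM in the control libraries and 39.0, 36.8 and 38.6 CPM in the pristimerin libraries, without overlap (log2 fold change 0.95, SE 0.083, adjusted p = 2.50e-07). Among the other genes that rose were HLA-C by 0.81, the trimming enzyme ERAP2 by 0.54, the transporter subunit TAP1 by 0.51, the light chain B2M by 0.50, TAP2 by 0.38 and NLRC5 by 0.30 on the log2 scale. ERAP1 fell by 0.21, and TAPBP was not called at 0.10. The call of ERAP2 was lost on both FPKM scales. The median of the list was 0.50. HLA genes are near-identical copies of each other, so the split of reads between them is uncertain.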

How the data were processed

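Per the labels' protocols, TRIzol-extracted RNA of THP-1 cells was enriched for poly(A), turned into stranded libraries by the dUTP method and read from both ends on Illumina instruments. Per the submitters' processing notes the genome build was hg38; aligner, counting tool, strand setting and annotation release: not given in the sources used here. The deposited counts are whole numbers per gene, not normalised. The deposited FPKM values are counts per length and per column total, since the length that both tables imply was the same in all libraries (largest coefficient of variation 2.14e-05 over 4312 genes).

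Groups were taken from the treatment label, 3 control and 3 pristimerin libraries. The counts of all 25336 genes were fitted with edgeR 4.0.16 (quasi-likelihood test, TMM, filterByExpr, no covariate) in R 4.3.3, and p-values were adjusted by Benjamini-Hochberg over the 15305 genes tested at 0.05. Summed CPM, FPKM ratios, overlaps in GENCODE 29 and promoter letters (RefSeq, GRCh38.p14) were computed with Python 3.11.15, pandas 2.3.3 and numpy 2.4.6, and figures with matplotlib 3.10.9. The alternatives changed the scaling (upper quartile, library totals, DESeq2 size factors, cyclic loess), the filter (none, or 5 CPM on average), the tool (limma-voom with limma 3.58.1, DESeq2 1.42.0), the unit (limma on log2(FPKM + 1) and log2(FPKM + 0.1), genes averaging 0.1 FPKM or more), the design (replicate number as a block), the genes (protein-coding) and the libraries (each left out in turn).

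In the lowest library 3 counts correspond to 0.157 CPM, and called members had at least 648 counts in every library. Chi-square tests between replicates gave 2.62 to 10.6 per degree of freedom, and no library was a repeat. The labels give no batch or date. Named in full were the 6 catalytic subunits, the members called, and in each group the highest and lowest log2 fold change and the highest FPKM; of the companion lists, up to 5 called genes by size of change (some list genes, counted in the totals, are not reported here), with NFE2L1, NGLY1, DDI2, SEM1, USP14, UCHL5 and TAP1. The members and lists were chosen with earlier results of these data known.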

Additional observations from a re-analysis of the deposited data

How the results depend on the processing

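The number of lower members, 12 as reported, was 19 under upper-quartile scaling, 23 under library totals, 24 under cyclic loess, 19 on each FPKM scale and 6 to 10 when a library was left out; higher members numbered 5 to 9 throughout. With the replicate number as a replicate block it was 19, with 9 higher. Same-numbered libraries deviated together with correlations of 0.098, 0.137 and 0.037, and each library correlated best with its own number. The other pairs ran from -0.107 to 0.010. Whether same-numbered libraries were paired is not given by the labels and was not tested. The members' median log2 fold change, -0.090, was -0.15 under upper-quartile scaling, -0.16 under library totals, -0.17 under cyclic loess, -0.074 without a filter, -0.13 above 5 CPM, -0.15 and -0.16 on log2(FPKM + 1) and log2(FPKM + 0.1), -0.11 over protein-coding genes, and -0.095 to -0.055 with a library left out. All genes called higher, 2216, were 1389 under library totals, 1081 and 1084 on the FPKM scales and 1742 to 2357 with a library left out. All genes called lower, 2313, were 1534 to 2329 with a library left out. They exceeded 2329 under upper-quartile scaling and library totals, on both FPKM scales, with a replicate block and without a filter. They were below 2313 under cyclic loess, above 5 CPM, with DESeq2 or its size factors, with limma-voom and over protein-coding genes. Companion genes called higher, 17, were 8 on each FPKM scale, and those called lower, 6, were 2 to 6 with a library left out, with 2 without control replicate 3. Over all genes the median log2 fold change, -0.013, was -0.073 under upper-quartile scaling, -0.084 under library totals and 0.010 under cyclic loess. The causes were not tested.

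No called member or companion changed direction. Uncalled genes that changed sign had log2 fold changes under upper-quartile scaling, library totals, cyclic loess, log2(FPKM + 1) and log2(FPKM + 0.1) of -0.015, -0.027, -0.063, -0.027 and -0.028 for PSMA5, -0.027, -0.038, -0.035, -0.030 and -0.031 for PSMB10, -0.027, -0.039, -0.018, -0.032 and -0.038 for PSMF1, and -0.035, -0.046, -0.026, -0.038 and -0.043 for NGLY1. Without cyclic loess, the same settings gave -0.016, -0.027, -0.023 and -0.028 for PSMD5, and library totals and the FPKM scales gave -0.0087, -0.0069 and -0.012 for PSMG4. Above 5 CPM, PSMB10, PSMF1 and NGLY1 were at -0.0012, -0.0013 and -0.0085. PSMD13 was at 0.0087 with DESeq2 size factors, 0.014 without a filter, 0.0088 with DESeq2 and -0.0094 to 0.034 with a library left out. PSMA6 was at 0.085 under cyclic loess and 0.0005 without a filter. With a library left out, PSMA6 ran from -0.072 to 0.059, PSMB10 from -0.071 to 0.12, and PSMA7 from -0.071 to 0.019. Depth limits PSMA2, which had 29 counts in its lowest library.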

Other observations

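Genes that overlap a member were not all still. DNAJC2, a ribosome-associated chaperone on the opposite strand of PSMC2, rose with a log2 fold change of 0.48 (edgeR adjusted p = 0.000183), while PSMC2 was at -0.12 and not called. The antisense RNA PSMA3-AS1 rose with a log2 fold change of 0.27 (adjusted p = 0.0232), against -0.094 for PSMA3, and PSMG3-AS1 fell with -0.29 (adjusted p = 0.0390), against 0.074 for PSMG3. In each of these pairs the member was not called, and its log2 fold change was opposite in sign to that of its neighbour. Signs were also opposite for PSMC1 with NRDE2 and PSMC2 with PMPCB. They were the same for PSMC5 with FTSJ3, PAAF1 with COA4, PSMG2 with SPIRE1 and PSME3 with BECN1. PSMB9 shared its sign with PSMB8 and TAP1, all called higher.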
